A study of Mus musculus with 32 samples.

Results

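The genes described here are 39 members of the NRF2 pathway and of the glutathione and antioxidant enzyme systems: the sensor and its transcription factor, the enzymes that make and recycle glutathione, the thioredoxin system, phase 2 detoxification enzymes, the glutathione S-transferases, and the enzymes that remove peroxide and superoxide. They were chosen by gene symbol, and every probe that the array files assign to one of these symbols was collected. Of the 39 members, 38 had at least 1 probe, and all 38 entered the tests among 21730 genes. The exception was Gsta1, an alpha-class glutathione S-transferase, for which the files name no probe.

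Livers of male C57/BL6 mice were profiled on 32 one-colour arrays, 4 livers in each of 8 groups, with 1 array for each liver. Before hepatectomy, MCD + agonist mice ate a diet lacking methionine and choline for 3 weeks and, after the first week, received a dual agonist of the GLP1 and glucagon receptors (GLP1R/GCGR) at 4.4 mg/kg/day, given every other day for 2 weeks. MCD mice ate the same diet with no agonist, SD + agonist mice ate standard diet (chow) and received the agonist for 2 weeks, and SD mice ate standard diet alone. The remaining 4 groups had the same diets and treatments (MCD + agonist PH, MCD PH, SD + agonist PH and SD PH), underwent 70% partial hepatectomy (PH), continued on diet and treatment, and were sampled 2 weeks later. The methionine- and choline-deficient diet is a dietary model of steatohepatitis, all groups are wild type as far as the labels say, and the age of the mice is not given in the sources used here.

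NRF2, the product of Nfe2l2, is a transcription factor that is held at low levels by KEAP1, an adaptor that hands it to a ubiquitin ligase. Electrophiles and oxidants modify KEAP1, NRF2 escapes degradation, and with small Maf proteins it binds antioxidant response elements in the promoters of genes for glutathione synthesis, quinone reduction and conjugation. In liver these enzymes clear drugs, aldehydes and peroxides, and much of NRF2 control acts on the protein, so its transcript is no direct measure of its activity.

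Each level is log2 of the array's processed signal minus log2 of that array's 75th percentile, so a level of 0 lies at the 75th percentile of the array, and levels of different probes are not compared. An array had 43.1% to 69.2% of its probes clearly brighter than background (median 52.6%) and no more than 2 saturated spots, and all 38 members were well above background on every array. The defining markers of hepatocytes fit the labelled tissue: 5 of 6 were tested and none was below background in any group. A change passes at an adjusted p (limma, Benjamini-Hochberg over all 21730 genes) under 0.05. Each p-value sets a change against the spread between livers, which limma estimated for each gene over all 8 groups together. The ± after a change is the SE from that shared estimate. Because the tissue was whole liver, fewer cells of a type and less RNA per cell cannot be told apart.

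2 features of the deposit bear on every comparison. In the authors' deposited table of processed values, 16 of 32 columns matched an array of another group best: the MCD and the SD + agonist columns are exchanged relative to the scanner files, before and after hepatectomy alike, with the replicate number kept in all 32. Best rank correlations ran between 0.9538 and 0.9967, and the 16 exchanged columns reached 0.8679 to 0.9392 with the array of their own label. Groups here follow the labels of the scanner files, which of these sources is right is not settled by the values, and calls and selected values of the authors' deposited table are given with the diet, agonist and interaction comparisons. The diet by agonist interaction keeps its sign and size when those groups are exchanged, and the comparisons of SD PH with SD and of MCD + agonist PH with MCD + agonist use neither. The arrays also lie on 4 slides with 2 groups each, 1 group to a row. The groups of a diet comparison share a slide before hepatectomy, and those of an agonist comparison share one after it, where group and row cannot be told apart. In the other comparisons group and slide cannot be told apart.

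To show matches to 1 form of the antioxidant response element, promoter windows of 4 members are printed. They run from 250 bases before to 50 after the RefSeq transcript start on GRCm38.p6. The array files place probes on mm9, and these coordinates are not on that build. The core of the antioxidant response element was searched as TGACNNNGC on both strands, and capitals mark each match. Forms with another base in place of the C, such as the TGAGTCAGC in the Srxn1 window, were not searched, marked or counted. With the transcript start as position 1 and no position 0, the match starts at position 29 for Srxn1 (sulfiredoxin, which repairs hyperoxidised peroxiredoxins; chr2:152105274-152105573, + strand), at -92 in 1 of 3 windows for Txnrd1 (cytosolic thioredoxin reductase; chr10:82858956-82859255, + strand), at -240 for Nfe2l2 itself (chr2:75704614-75704913, - strand), and at -134 for Gclm, the modifier subunit of glutamate-cysteine ligase (chr3:122245307-122245606, + strand).
Srxn1: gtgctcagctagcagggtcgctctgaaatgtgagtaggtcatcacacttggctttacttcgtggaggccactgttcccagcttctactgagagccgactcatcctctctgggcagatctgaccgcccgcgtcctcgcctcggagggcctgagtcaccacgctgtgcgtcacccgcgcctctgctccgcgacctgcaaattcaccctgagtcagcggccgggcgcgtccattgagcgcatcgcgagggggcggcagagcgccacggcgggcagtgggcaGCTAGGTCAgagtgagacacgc
Txnrd1: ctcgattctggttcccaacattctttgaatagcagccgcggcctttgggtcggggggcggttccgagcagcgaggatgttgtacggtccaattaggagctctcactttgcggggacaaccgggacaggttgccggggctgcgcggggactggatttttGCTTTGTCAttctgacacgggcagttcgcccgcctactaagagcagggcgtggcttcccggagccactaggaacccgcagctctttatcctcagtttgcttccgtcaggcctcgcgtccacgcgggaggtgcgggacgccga
Nfe2l2: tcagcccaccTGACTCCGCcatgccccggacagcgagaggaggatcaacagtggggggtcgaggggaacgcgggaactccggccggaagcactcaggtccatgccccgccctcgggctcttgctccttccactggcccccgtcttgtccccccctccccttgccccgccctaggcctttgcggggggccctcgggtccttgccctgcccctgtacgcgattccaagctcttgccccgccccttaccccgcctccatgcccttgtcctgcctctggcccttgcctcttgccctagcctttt
Gclm: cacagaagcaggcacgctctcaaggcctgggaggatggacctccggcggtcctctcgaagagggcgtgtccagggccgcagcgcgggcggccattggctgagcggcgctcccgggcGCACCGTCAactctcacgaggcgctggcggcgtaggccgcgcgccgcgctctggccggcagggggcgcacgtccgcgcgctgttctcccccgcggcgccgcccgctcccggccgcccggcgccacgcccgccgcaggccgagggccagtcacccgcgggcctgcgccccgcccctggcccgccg
The match is read on the opposite strand for Srxn1, Txnrd1 and Gclm. A match to TGACNNNGC was present in 9 of the 33 members that have a window (27.3%), or in 9 of their 44 windows (20.5%), against 4071 of all 32851 windows (12.4%). The stricter form TGACTCAGC, which overlaps the core, was present in Prdx1 alone among the members and in 149 of all windows (0.454%). A match is a run of letters, and binding was not measured.

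The diet comparisons, 4 in all, share no array. On the MCD diet without agonist before hepatectomy, 7 members rose and 8 fell of 38 (39.5%), against 26% of all genes called. The medians were -0.11 over the members and -0.13 over all genes. Scaling to the array median turned the split to 9 higher and 5 lower, and moved the median of all genes to 0.23. With the agonist before hepatectomy, 5 rose and 5 fell (26.3%), against 15.2% of all genes, with medians of -0.13 over the members and 0.03 over all genes. Scaling to the array median gave 3 higher and 6 lower there. After hepatectomy, 0 rose and 8 fell without agonist (21.1%), against 11.5% of all genes called and 5.98% called lower. With agonist, 1 rose and 6 fell (18.4%), against 8.23% of all genes. The medians were -0.25 and, with agonist, -0.32 over the members, and -0.04 and 0.00 over all genes. Median scaling left 1 higher and 3 lower, and 1 higher and 2 lower, in these comparisons after hepatectomy. With 1 liver left out, the count after hepatectomy without agonist was highest (10) without SD PH replicate 1. Over all 4 diet comparisons, 13 members fell in at least 1, 11 rose in at least 1, none did both, and Aox1 and Gstm6 fell in all 4. The matching shares of all genes were not computed, so these pooled counts do not set the members apart from other genes.

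**Figure D1:**
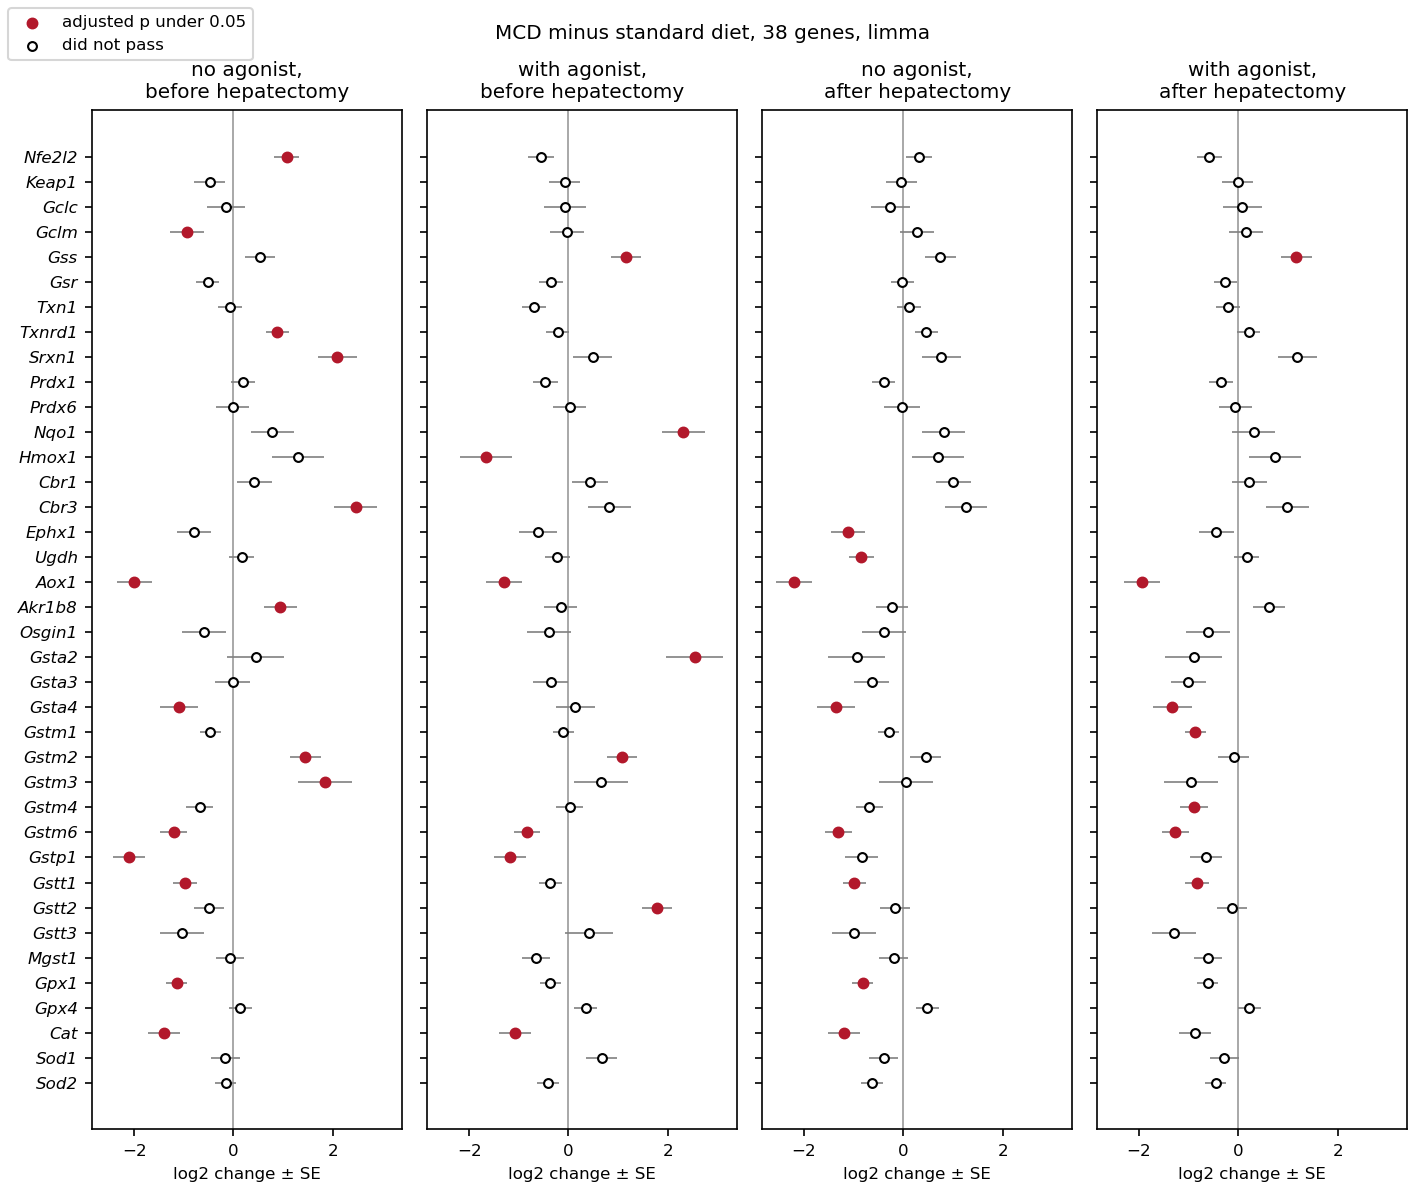
Log2 change with its SE (x axis) for each of the 38 tested members (y axis, ordered by role), MCD diet minus standard diet, with 1 panel for each of the 4 comparisons; filled red points passed at an adjusted p under 0.05. Aox1 and Gstm6 are filled on the left of 0 in all 4 panels, while filled points on the right of 0 are mostly in the panels before hepatectomy.

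Nfe2l2 rose in MCD livers, but not where the agonist was given. It read 4.04, 3.83, 4.63 and 4.31 in MCD livers, against 2.50, 3.57, 3.15 and 3.30 in SD livers. The groups did not overlap, with a log2 change of 1.07 ± 0.26 (2.1-fold higher, adjusted p = 0.00312). With the agonist it read 3.47, 3.14, 3.11 and 3.51 in MCD + agonist livers, against 4.23, 3.60, 3.52 and 4.09 in SD + agonist livers. Every MCD + agonist liver read below every SD + agonist liver, by a narrow margin, and the change of -0.55 ± 0.26 did not pass (adjusted p = 0.151). After hepatectomy the changes were 0.31 ± 0.26 and, with agonist, -0.58 ± 0.26, and neither passed. Keap1, the inhibitor, passed in none of the 14 comparisons computed here.

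In the thioredoxin system, 2 of 5 members rose with the diet before hepatectomy without agonist. Srxn1 read 5.46, 6.34, 5.39 and 5.39 in MCD livers, against 2.55, 3.64, 4.03 and 3.99 in SD livers. Every MCD liver lay more than 1 log2 unit above every SD liver, and the log2 change was 2.09 ± 0.39 (adjusted p = 0.000331). Txnrd1 read 5.52, 5.29, 5.61 and 5.34 in MCD livers, against 4.11, 5.22, 4.83 and 4.08 in SD livers. Its lowest MCD liver was just above its highest SD liver, and the change was 0.88 ± 0.23 (1.84-fold, adjusted p = 0.00644). With only the groups compared Txnrd1 did not pass (adjusted p = 0.0506), and with normexp its change was 1.62. After hepatectomy and with agonist, Srxn1 read 5.61, 6.55, 6.03 and 4.85 in MCD + agonist PH livers, against 4.30, 4.53, 4.42 and 5.03 in SD + agonist PH livers. A single MCD + agonist PH liver fell inside the range of the other group, and the change of 1.19 ± 0.39 did not pass (adjusted p = 0.0562). Without agonist after hepatectomy, Srxn1 read 5.62, 5.44, 5.20 and 5.20 in MCD PH livers, against 5.46, 4.51, 4.21 and 4.22 in SD PH livers. The groups overlapped at SD PH replicate 1, and the change did not pass. Txn1, the small dithiol protein that Txnrd1 reduces, and the peroxiredoxins Prdx1 and Prdx6, which use thiols to reduce peroxides, passed in none of these.

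**Figure D2:**
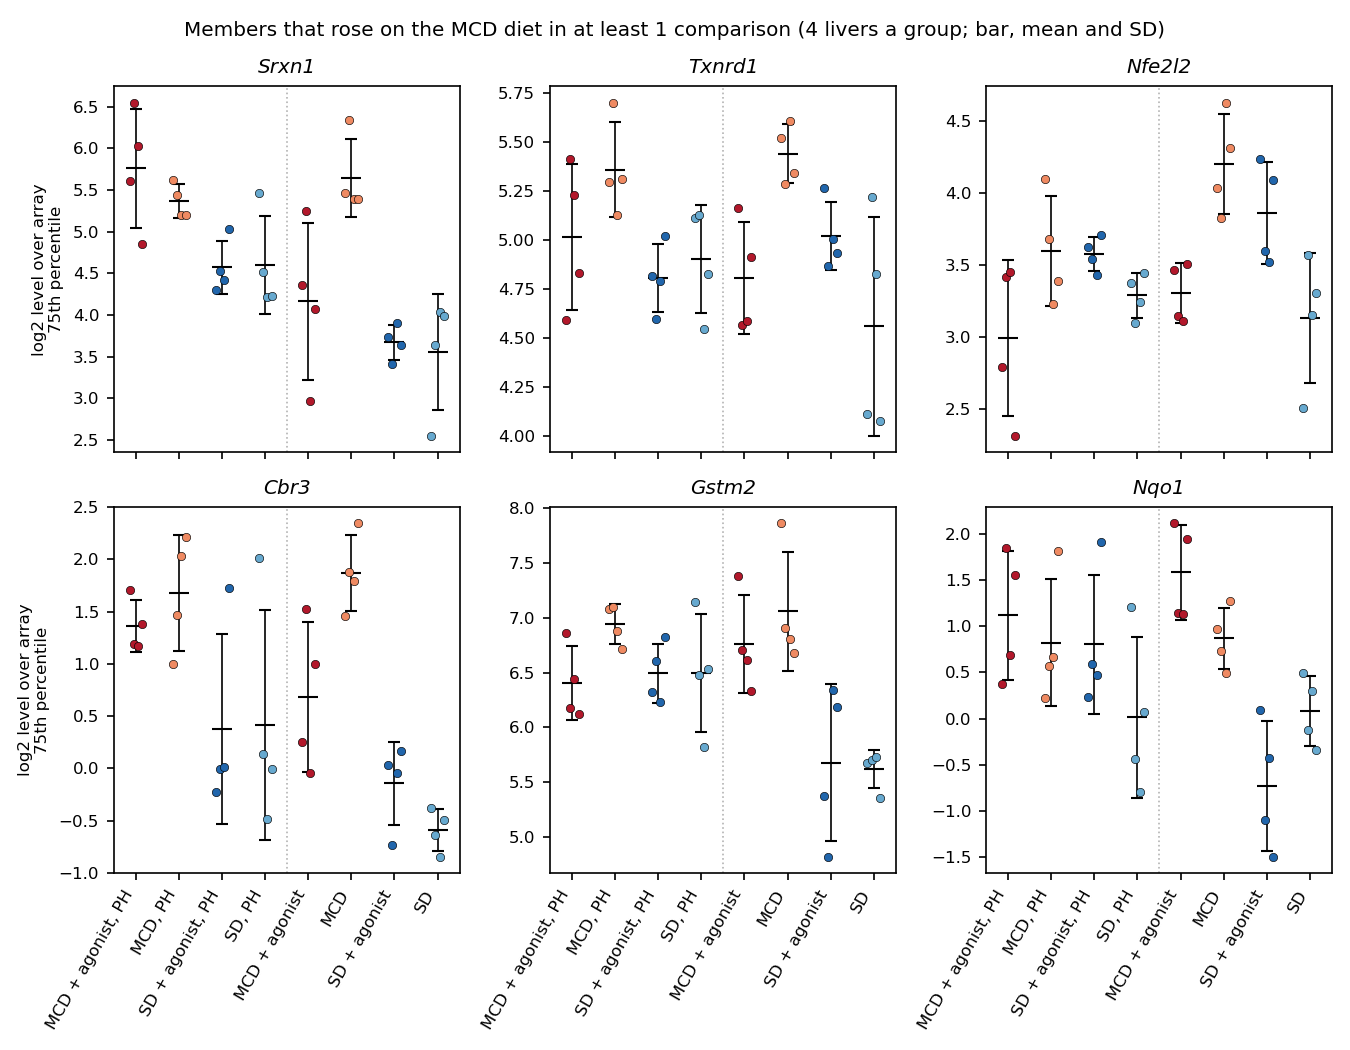
Log2 level over the array's 75th percentile (y axis, own range for each gene) of 6 members that rose on the MCD diet in at least 1 comparison, in each of the 8 groups (x axis; PH marks livers after hepatectomy); points are single livers, and bars give mean and SD of 4 livers. Srxn1, Txnrd1, Nfe2l2 and Cbr3 stand highest among the groups before hepatectomy in MCD livers without agonist, and Nqo1 in MCD + agonist livers.

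Genes of glutathione synthesis moved in different comparisons. Gclm fell on MCD diet: it read 1.58, 1.49, 1.34 and 1.59 in MCD livers, against 2.67, 1.87, 2.58 and 2.63 in SD livers (log2 change -0.94 ± 0.34, adjusted p = 0.0434). Its groups did not overlap, but the call was lost in 7 of 8 fits that each left out 1 liver (adjusted p up to 0.101) and in 3 of 8 other settings (up to 0.265, with median scaling). Gss, glutathione synthetase, rose with the diet under agonist, and read 4.02, 3.95, 3.80 and 3.93 in MCD + agonist livers, against 2.23, 3.57, 2.18 and 3.11 in SD + agonist livers (log2 change 1.15 ± 0.31, adjusted p = 0.0103). After hepatectomy with agonist it read 4.64, 4.43, 4.21 and 4.08 in MCD + agonist PH livers, against 2.92, 2.65, 3.26 and 3.84 in SD + agonist PH livers. The groups were apart in both, and the second change was 1.17 ± 0.31 (2.25-fold, adjusted p = 0.0156). This call was lost without SD + agonist PH replicate 1 or 2 (adjusted p = 0.0553 and 0.0746), and the one before hepatectomy with only the groups compared (0.0731) or median scaling (0.0614). Gclc, the catalytic subunit of glutamate-cysteine ligase, and Gsr, which regenerates reduced glutathione, did not pass in any of the 4.

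Among the quinone, carbonyl and aldehyde enzymes, Aox1 fell and the others moved in 1 or few comparisons. Aox1, a cytosolic aldehyde oxidase whose transcript is abundant in hepatocytes, has its probe at chr1:58163025-58163084 (mm9, + strand). It read 2.51, 3.39, 2.23 and 2.95 in MCD livers, against 5.20, 4.24, 5.51 and 4.09 in SD livers. With agonist it read 2.87, 2.83, 2.02 and 2.76 in MCD + agonist livers, against 3.35, 4.41, 3.42 and 4.51 in SD + agonist livers. Every MCD liver lay below every liver on standard diet in both pairs. After hepatectomy, Aox1 read 1.85, 1.72, 2.80 and 3.34 in MCD PH livers, against 4.22, 4.79, 4.78 and 4.70 in SD PH livers. It read 3.11, 2.89, 2.52 and 2.48 in MCD + agonist PH livers, against 4.94, 4.38, 5.06 and 4.35 in SD + agonist PH livers. These pairs did not overlap either. The log2 changes were -1.99 ± 0.36 and, with agonist, -1.31 ± 0.36 before hepatectomy (3.98-fold and 2.47-fold lower, adjusted p = 0.000244 and 0.0132). After it they were -2.20 ± 0.36 and, with agonist, -1.94 ± 0.36 (4.58-fold and 3.83-fold lower, adjusted p = 0.000185 and 0.000984).

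Cbr3, a carbonyl reductase that is a known NRF2 target in mouse, read 1.46, 1.88, 1.79 and 2.34 in MCD livers, against -0.38, -0.64, -0.84 and -0.50 in SD livers. All MCD livers were above 0 and all SD livers below it, with a change of 2.46 ± 0.43 (adjusted p = 0.000162). After hepatectomy it read 1.00, 1.47, 2.03 and 2.21 in MCD PH livers, against 2.01, 0.14, -0.49 and -0.003 in SD PH livers. Here SD PH replicate 1 lay inside the MCD PH range, and the change did not pass. Nqo1, the quinone reductase often used as a readout of NRF2, rose with the diet under agonist. It read 2.11, 1.15, 1.14 and 1.94 in MCD + agonist livers, against 0.09, -1.09, -0.42 and -1.49 in SD + agonist livers. The lowest MCD + agonist liver was more than 1 log2 unit above the highest SD + agonist liver, and the change was 2.31 ± 0.43 (4.97-fold higher, adjusted p = 0.000551). Without agonist the change of 0.79 ± 0.43 in Nqo1 did not pass (adjusted p = 0.179). Its MCD livers (0.4985 to 1.2764) still lay above its SD livers (-0.3405 to 0.4958), by a very narrow margin. SD + agonist livers were the lowest of these groups, with a mean of -0.73 against 0.08 in SD livers. The diet by agonist interaction of Nqo1 did not pass. Akr1b8, an aldo-keto reductase, rose in MCD livers (0.95 ± 0.33, adjusted p = 0.0324), with levels of 1.55 to 2.19 in MCD livers and 0.43 to 1.09 in SD livers. It did not pass in 4 of 8 fits with 1 liver left out (adjusted p up to 0.104).

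After hepatectomy without agonist, 2 further enzymes of this group fell. Ugdh, which makes the glucuronic acid donor for conjugation, read 4.26, 4.72, 5.19 and 5.34 in MCD PH livers, against 5.95, 5.51, 5.62 and 5.80 in SD PH livers (log2 change -0.84 ± 0.25, adjusted p = 0.0294). Ephx1, microsomal epoxide hydrolase, read 5.67, 6.17, 7.45 and 7.38 in MCD PH livers, against 7.91, 7.67, 7.78 and 7.76 in SD PH livers (-1.11 ± 0.35, adjusted p = 0.0365). Both pairs of groups stayed apart, and the lowest MCD PH liver for each was replicate 1. Without that liver the Ephx1 change was -0.78 and did not pass (adjusted p = 0.168). With 1 liver left out, the Ugdh call was lost in 5 of 8 fits (adjusted p up to 0.131, without the same liver) and the Ephx1 call in 6 of 8, and each was lost in 4 of 8 other settings (up to 0.107 and 0.121). Cbr1, a carbonyl reductase, and Osgin1, an oxidative stress response gene, passed in none of the 4.

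Glutathione S-transferases couple glutathione to electrophiles, and members of the same class moved in opposite directions. In the mu class, Gstm6 fell in all 4 diet comparisons. It read 5.02, 4.97, 5.49 and 5.04 in MCD livers, against 6.99, 6.18, 6.18 and 5.99 in SD livers. It read 4.87, 4.88, 5.22 and 4.93 in MCD + agonist livers, against 5.74, 5.25, 5.95 and 6.31 in SD + agonist livers. Neither pair overlapped. After hepatectomy it read 4.71, 4.53, 4.77 and 4.54 in MCD PH livers, against 5.46, 6.01, 6.15 and 6.15 in SD PH livers. With agonist it read 5.28, 4.50, 4.61 and 4.18 in MCD + agonist PH livers, against 6.21, 6.05, 6.23 and 5.15 in SD + agonist PH livers. In that last pair 1 SD + agonist PH liver read below the highest MCD + agonist PH liver. The changes were -1.20 ± 0.27 and, with agonist, -0.84 ± 0.27 before hepatectomy, and -1.31 ± 0.27 and -1.27 ± 0.27 after it (adjusted p = 0.00162, 0.0321, 0.0018 and 0.00292). Of the other 3 tested Gstm6 probes, 2 changed by -1.40 and -1.25 in MCD against SD livers, while A_52_P264405 changed by -0.03. With agonist before hepatectomy none of those 3 passed (-0.77, -0.61 and 0.53), and the call of the probe used was lost in 6 of 8 fits with 1 liver left out (adjusted p up to 0.119) and with the mean over probes (-0.42, adjusted p = 0.164). After hepatectomy the same 2 probes passed with and without agonist, and A_52_P264405 did not (0.15, and 0.14 with agonist).

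**Figure D3:**
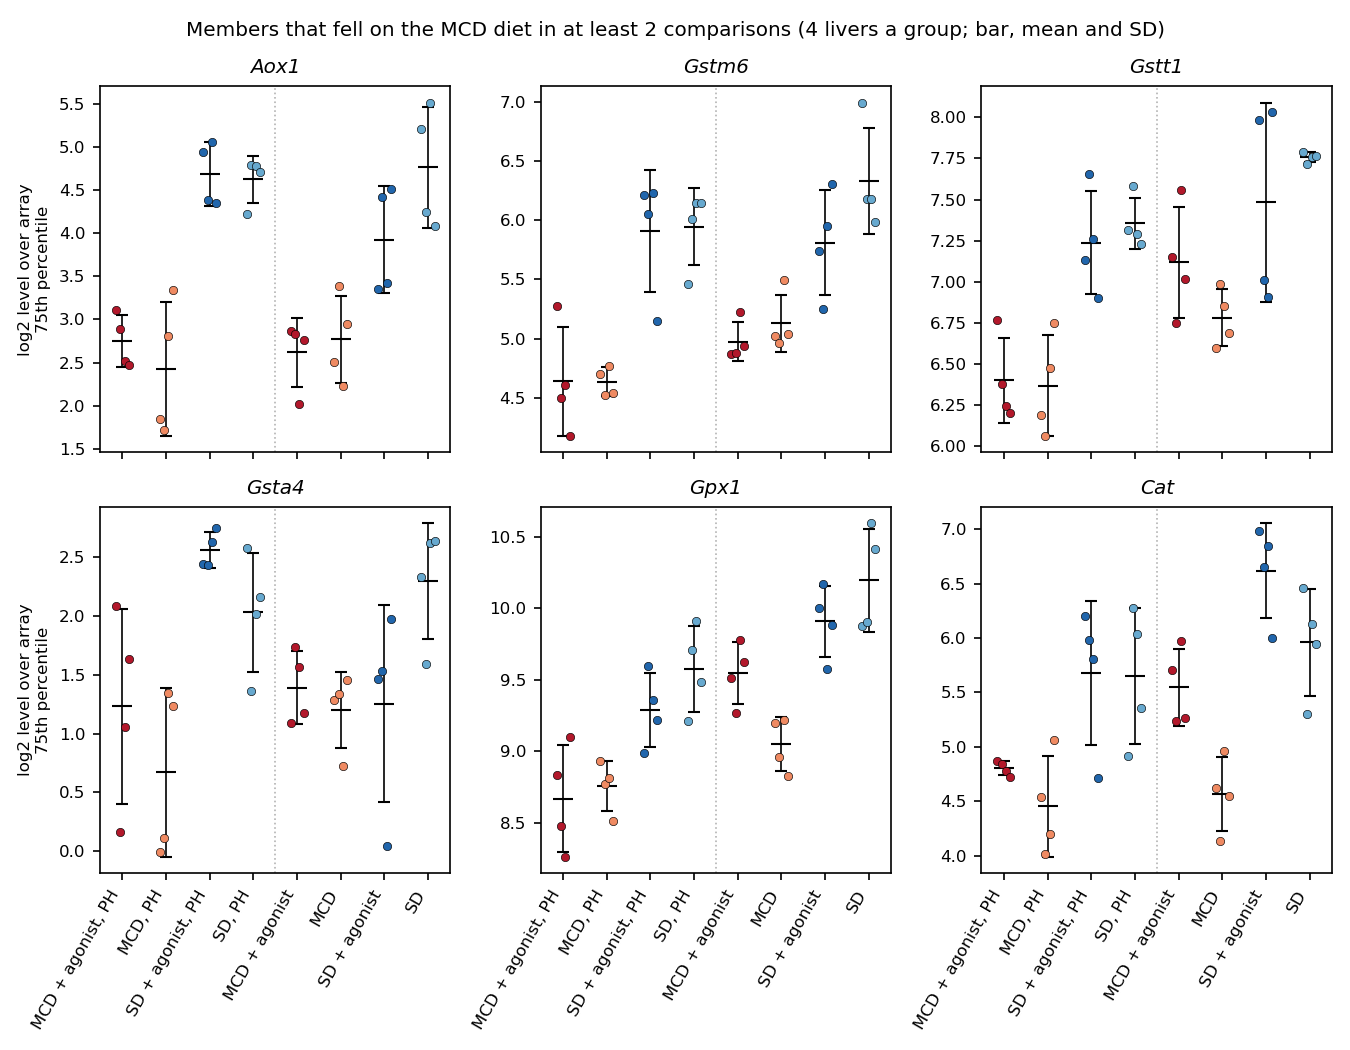
Log2 level over the array's 75th percentile (y axis, own range for each gene) of 6 members that fell on the MCD diet in at least 2 comparisons, in each of the 8 groups (x axis; PH marks livers after hepatectomy); points are single livers, and bars give mean and SD of 4 livers. For Aox1 every group on the MCD diet lies below its counterpart on standard diet with no overlap.

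Gstm2 moved the other way. It read 7.86, 6.90, 6.80 and 6.68 in MCD livers, against 5.68, 5.70, 5.73 and 5.36 in SD livers (log2 change 1.44 ± 0.31, 2.72-fold higher, adjusted p = 0.0012). With agonist it read 7.38, 6.71, 6.62 and 6.33 in MCD + agonist livers, against 5.37, 4.82, 6.34 and 6.18 in SD + agonist livers (1.08 ± 0.31, adjusted p = 0.0166). The first pair was apart, and the second touched at 1 liver. Gstm3 also rose in MCD livers (1.84 ± 0.54, adjusted p = 0.0132), with 5.60 to 6.28 in MCD livers and 3.12 to 5.04 in SD livers, although its second probe gave 0.88 (adjusted p = 0.158). Without SD replicate 1 the Gstm3 call was lost (adjusted p = 0.054), and with normexp the Gstm2 change in MCD livers was 0.91. After hepatectomy with agonist, Gstm1 and Gstm4 fell. Gstm1 read 7.44, 7.04, 7.17 and 7.40 in MCD + agonist PH livers, against 7.75, 8.20, 8.13 and 8.44 in SD + agonist PH livers (-0.86 ± 0.21, adjusted p = 0.00856). Gstm4 read 4.66, 4.38, 4.04 and 4.92 in MCD + agonist PH livers, against 5.26, 4.91, 5.50 and 5.87 in SD + agonist PH livers (-0.89 ± 0.28, adjusted p = 0.0437). Gstm1 was apart between the groups, Gstm4 just overlapped, and the second probes of both did not pass (-0.73, adjusted p = 0.135, and -0.53, adjusted p = 0.321). The Gstm4 call was lost in 6 of 8 fits with 1 liver left out (adjusted p up to 0.16) and the Gstm1 call with median scaling (0.078). The Gstm1 probe used is placed on chromosome 5 by the files and its other probe on chromosome 3, where the Gstm1 promoter windows lie. That other probe fell in MCD against SD livers (-1.32, adjusted p = 0.00214 over all probes), where the probe used did not pass. The Gstm1 calls therefore depend on the probe.

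In the alpha class, Gsta4, which conjugates the lipid peroxidation product 4-hydroxynonenal, fell with the diet before hepatectomy without agonist, and after it with and without agonist. It read 1.28, 1.33, 0.73 and 1.46 in MCD livers, against 2.33, 1.59, 2.62 and 2.64 in SD livers (-1.09 ± 0.39, adjusted p = 0.038). After hepatectomy it read -0.01, 0.12, 1.34 and 1.23 in MCD PH livers, against 2.58, 1.37, 2.01 and 2.16 in SD PH livers (-1.36 ± 0.39, adjusted p = 0.022). With agonist it read 2.08, 0.16, 1.05 and 1.63 in MCD + agonist PH livers, against 2.44, 2.43, 2.63 and 2.74 in SD + agonist PH livers (-1.33 ± 0.39, adjusted p = 0.0304). None of these pairs overlapped. With 1 liver left out, the call was lost in 6 of 8 fits before hepatectomy (adjusted p up to 0.111), in 5 of 8 after it (up to 0.0891, without MCD PH replicate 1) and in 6 of 8 with agonist (up to 0.165, without MCD + agonist PH replicate 2). Gsta2 rose with the diet under agonist, and read 3.29, 3.62, 4.64 and 3.87 in MCD + agonist livers, against 1.14, 1.14, 0.50 and 2.47 in SD + agonist livers. SD + agonist livers were the low ones, and the change was 2.54 ± 0.57 (5.83-fold higher, adjusted p = 0.00275). Gsta3, a further alpha-class enzyme, did not pass in any of the 4.

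In the pi and theta classes, Gstp1 fell with the diet before hepatectomy. It read 7.06, 7.76, 7.31 and 7.01 in MCD livers, against 9.38, 9.16, 9.36 and 9.62 in SD livers, and with agonist 7.29, 6.23, 7.35 and 7.66 in MCD + agonist livers, against 8.57, 8.26, 7.92 and 8.52 in SD + agonist livers. Both pairs were apart, with changes of -2.09 ± 0.32 and -1.18 ± 0.32 (adjusted p = 3.91e-05 and 0.0123). A second Gstp1 probe gave -2.31 and -1.05, of which the change with agonist did not pass (adjusted p = 0.0637). Gstt1 fell in 3 of the 4 comparisons. It read 6.60, 6.99, 6.85 and 6.69 in MCD livers, against 7.79, 7.72, 7.76 and 7.76 in SD livers (-0.98 ± 0.24, adjusted p = 0.0035). After hepatectomy it read 6.19, 6.06, 6.48 and 6.75 in MCD PH livers, against 7.31, 7.58, 7.29 and 7.23 in SD PH livers (-0.99 ± 0.24, adjusted p = 0.0069). Before hepatectomy the SD livers lay close together above every MCD liver, and after it the groups were apart too. With agonist it read 6.77, 6.38, 6.25 and 6.21 in MCD + agonist PH livers, against 7.13, 7.66, 7.26 and 6.90 in SD + agonist PH livers (-0.84 ± 0.24, adjusted p = 0.0255). Gstt2 rose with the diet under agonist: 4.44, 4.74, 4.63 and 4.33 in MCD + agonist livers, against 2.83, 2.43, 2.52 and 3.26 in SD + agonist livers (1.78 ± 0.30, 3.43-fold higher, adjusted p = 0.000189). Both of these pairs were apart, and again SD + agonist livers were low for Gstt2. Gstt1 did not pass with median scaling before hepatectomy (-0.61, adjusted p = 0.0923), and with agonist after it in 5 of 8 fits with 1 liver left out (up to 0.113) and in 3 of 8 other settings.

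Among the enzymes that remove peroxide and superoxide, Gpx1 and Cat fell. Gpx1, the main cytosolic glutathione peroxidase, read 9.20, 8.96, 9.22 and 8.82 in MCD livers, against 9.88, 9.90, 10.59 and 10.41 in SD livers (-1.15 ± 0.22, adjusted p = 0.000361). After hepatectomy it read 8.93, 8.77, 8.81 and 8.51 in MCD PH livers, against 9.21, 9.70, 9.91 and 9.49 in SD PH livers (-0.82 ± 0.22, adjusted p = 0.0126). Neither pair overlapped, the change in MCD livers was -0.52 with quantile normalization (adjusted p = 0.0407), and the second call was lost with median scaling (adjusted p = 0.101) and without SD PH replicate 3 (0.0582). Cat, peroxisomal catalase, read 4.62, 4.14, 4.97 and 4.55 in MCD livers, against 6.46, 5.30, 6.13 and 5.95 in SD livers. With agonist it read 5.71, 5.24, 5.97 and 5.26 in MCD + agonist livers, against 6.98, 6.65, 6.84 and 6.0 in SD + agonist livers. These pairs were apart. After hepatectomy Cat read 4.54, 4.01, 4.20 and 5.07 in MCD PH livers, against 4.92, 6.28, 6.04 and 5.36 in SD PH livers, a pair that overlapped at 1 liver of each. The changes of Cat were -1.39 ± 0.32 and, with agonist, -1.07 ± 0.32 before hepatectomy, and -1.19 ± 0.32 after it (adjusted p = 0.0024, 0.0228 and 0.0157). A second Cat probe passed in the same 3 comparisons, and the call after hepatectomy was lost in 3 of 8 fits with 1 liver left out (adjusted p up to 0.0763). Gpx4, which reduces lipid hydroperoxides, and Sod1 and Sod2 did not pass in any of the 4 diet comparisons.

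The calls on the diet were shared in part between these comparisons. Without agonist, the 8 members called after hepatectomy included 6 of the 15 called before it (75% and 40%): Aox1, Cat, Gpx1, Gsta4, Gstm6 and Gstt1, all lower. Before hepatectomy, 5 members were called both with and without agonist (50% of 10 and 33.3% of 15). The matching shares over all genes were not computed, so these percentages do not set the members apart from other genes. Across the 38 members the log2 changes before and after hepatectomy without agonist correlated at r = 0.771, against 0.544 across all genes, and those with and without agonist before hepatectomy at 0.406, against 0.364. Genes measured on the same livers are not independent, so these are descriptions.

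The authors' deposited table, as labelled, gives other values for the diet. It calls 6 members in MCD against SD livers, with Gstp1 at -1.41, Cbr3 at 0.54 and Aox1 at -0.48, and the sign turns for Srxn1 (-0.58) and Gstm2 (-0.27). With agonist it calls 11, and the sign turns for Gsta2 (-1.40), Gss (-0.41), Gstm2 (-0.57) and Cat (0.79). After hepatectomy it calls 0 members with or without agonist, and the sign turns for Aox1 (0.024, and 0.34 with agonist), Gsta4 (0.47, and 0.49 with agonist), Gstm6 (0.11) and Ephx1 (0.28). Gstm3 also turns in MCD against SD livers (-0.48), where Nfe2l2 stands at 0.94, Txnrd1 at 0.37, Gclm at -1.43, Akr1b8 at 0.68, Gstt1 at -0.81, Gpx1 at -0.013 and Cat at -0.081. The fits on the scanner signals turned the sign of no member called, in any of the 8 other settings or with 1 liver left out. With only the groups compared in the fit, 3 members were called for diet with agonist before hepatectomy, where Gss, Gstp1, Aox1, Gstm2 and Cat no longer passed (adjusted p = 0.0558 to 0.124), and 3 after hepatectomy without agonist. For diet with agonist before hepatectomy, Gstp1 did not pass without MCD + agonist replicate 2 (adjusted p = 0.0668), nor did Aox1 without SD + agonist replicate 2 or 4 (0.0522 and 0.0536). Gstm2 was lost without SD + agonist replicate 1 or 2 or MCD + agonist replicate 1 (adjusted p = 0.056 to 0.0917), and Cat without SD + agonist replicate 1 or 3 or MCD + agonist replicate 2 or 4 (0.0587 to 0.075).

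With the agonist on the MCD diet, 3 members fell and 2 rose before hepatectomy (13.2%), against 13.3% of all genes called, with medians of -0.16 over the members and 0.14 over all genes. Scaling to the array median gave 0 higher and 5 lower, and without MCD + agonist replicate 3 the count of members called was 0. Srxn1 read 4.36, 5.25, 2.97 and 4.07 in MCD + agonist livers, against 5.46, 6.34, 5.39 and 5.39 in MCD livers. The groups were apart, and the change of -1.49 ± 0.39 (adjusted p = 0.0132) was lost without MCD + agonist replicate 3 (adjusted p = 0.0766). Nfe2l2, whose levels in both groups are given above, was lower in every MCD + agonist liver than in any MCD liver, with a change of -0.89 ± 0.26 (1.86-fold lower, adjusted p = 0.0211). With normexp background correction the Nfe2l2 change was -0.39 (adjusted p = 0.22).

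Hmox1, heme oxygenase, read 1.42, 2.74, 2.15 and 2.00 in MCD + agonist livers, against 3.91, 3.15, 3.33 and 4.69 in MCD livers. No MCD + agonist liver reached the lowest MCD liver, with a change of -1.69 ± 0.52 (3.23-fold lower, adjusted p = 0.0301), while a second Hmox1 probe (adjusted over all probes, as for every second probe here) gave -0.41 (adjusted p = 0.425). Gstt3, a theta-class transferase, had 3 measured MCD + agonist livers at 3.50, 6.75 and 5.85, against 4.33, 3.45, 3.83 and 3.97 in MCD livers. A single liver lay inside the MCD range, and the change of 1.47 ± 0.48 (adjusted p = 0.0424) was 0.78 (adjusted p = 0.333) without MCD + agonist replicate 3. Cat was higher in every MCD + agonist liver than in any MCD liver, by 0.98 ± 0.32 (adjusted p = 0.0428), and by 0.63 (adjusted p = 0.263) with median scaling. A second Cat probe gave 0.23 (adjusted p = 0.716). With 1 liver left out, the calls of Cat (adjusted p up to 0.138), Gstt3 and Hmox1 (up to 0.112) were each lost in 5 of 8 fits, and that of Nfe2l2 in 3 of 8 (up to 0.0746). In the authors' deposited table the sign turns for Srxn1 (1.03) and Cat (-0.73), and Hmox1 stands at -1.69 and Nfe2l2 at -0.42.

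**Figure D4:**
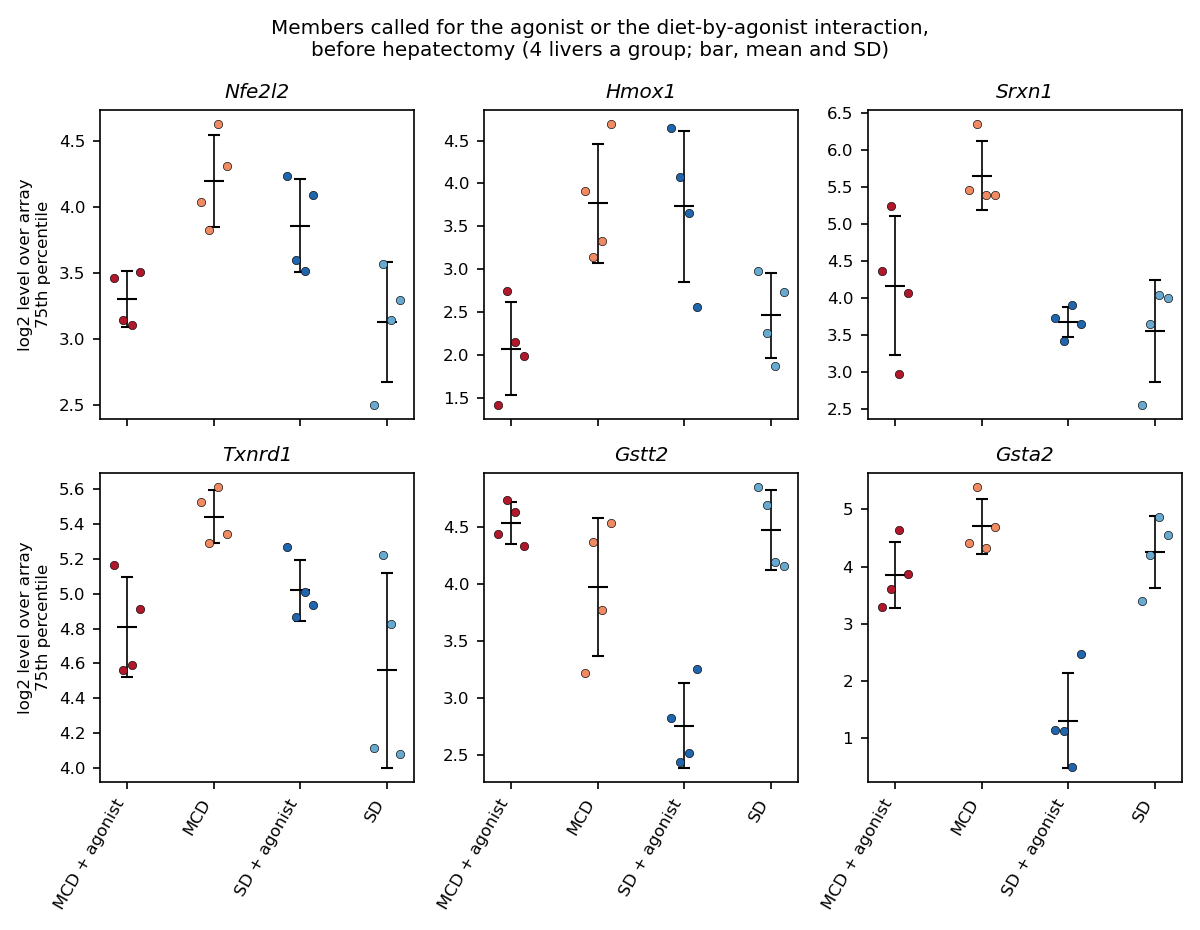
Log2 level over the array's 75th percentile (y axis, own range for each gene) of Nfe2l2, Hmox1, Srxn1, Txnrd1, Gstt2 and Gsta2 in the 4 groups before hepatectomy (x axis); points are single livers, and bars give mean and SD. Nfe2l2, Srxn1 and Hmox1 lie lower in MCD + agonist than in MCD livers with no overlap, and Gstt2 and Gsta2 lie lowest in SD + agonist livers.

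With the agonist on standard diet, 3 members fell and 0 rose before hepatectomy (7.89%), against 6.52% of all genes called and 3.22% called lower. The medians were -0.18 over the members and -0.01 over all genes, median scaling gave 1 higher and 2 lower, and normexp 3 higher and 8 lower. Gsta2 read 1.14, 1.14, 0.50 and 2.47 in SD + agonist livers, against 3.40, 4.20, 4.87 and 4.56 in SD livers. Gstt2 read 2.83, 2.43, 2.52 and 3.26 in SD + agonist livers, against 4.85, 4.70, 4.20 and 4.16 in SD livers. For both genes the groups were well apart, and the changes were -2.94 ± 0.57 and -1.72 ± 0.30 (7.69-fold and 3.29-fold lower, adjusted p = 0.00313 and 0.00133). Gstp1, with levels given above, was 2.1-fold lower (-1.07 ± 0.32, adjusted p = 0.0446), a call lost in 7 of 8 fits with 1 liver left out (adjusted p up to 0.136) and in 6 of 8 other settings (up to 0.129). The Gstm1 probe that the files place on chromosome 3 fell by -1.40 (adjusted p = 0.00734 over all probes), while the Gstm1 probe used did not pass. The authors' deposited table calls 17 members here, with Gsta2 at 0.28, Gstt2 at -0.77 and Gstp1 at -1.90.

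After hepatectomy, limma called 0 members for the agonist on either diet. On the MCD diet 0.405% of all genes were called, and 3 members had an unadjusted p under 0.05, against 13.8% of all genes: Ugdh (0.81 ± 0.25), Ephx1 (0.84 ± 0.35) and Nfe2l2 (-0.61 ± 0.26). Nfe2l2 read 2.79, 3.41, 3.45 and 2.31 in MCD + agonist PH livers, against 4.10, 3.68, 3.23 and 3.38 in MCD PH livers. 2 livers of each group overlapped. On standard diet 0.0092% of all genes were called, and 0 members had an unadjusted p under 0.05, against 2.57% of all genes. These comparisons run within a slide, and the authors' deposited table, with its exchanged groups, calls 9 members in each.

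The interaction asks whether the diet acts differently with and without the agonist, and it is not altered by the exchange of groups or by an additive slide effect. Before hepatectomy 4 members passed (10.5%), against 11.1% of all genes, 1 above 0 and 3 below it. Median scaling gave 1 above and 8 below, and moved the median of all genes to -0.35, against 0.18 with the 75th percentile. Nfe2l2 had an interaction of -1.62 ± 0.36 (adjusted p = 0.00529), the difference between a diet change of -0.55 with agonist and 1.07 without. Txnrd1 followed with -1.09 ± 0.33 (adjusted p = 0.0308), made of diet changes of -0.21 with agonist and 0.88 without. It did not pass with only the 4 groups in the fit (adjusted p = 0.0865), nor in 7 of 16 fits with 1 liver left out (up to 0.0699), and with normexp it was -1.77.

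Hmox1 gave the largest interaction of the 4 in size, -2.96 ± 0.74 (adjusted p = 0.0108). It read 4.65, 4.07, 3.65 and 2.57 in SD + agonist livers, against 2.98, 2.26, 1.88 and 2.74 in SD livers. These groups overlapped, and with the agonist 3 livers were above every SD liver, while in MCD mice the agonist livers were the low ones. With the agonist its diet change was -1.66 ± 0.52 (adjusted p = 0.0289), and 1.30 ± 0.52 without it (adjusted p = 0.0633). The diet call with agonist was lost in 4 of 8 fits with 1 liver left out (adjusted p up to 0.113). The second Hmox1 probe gave diet changes of -0.80 with agonist and -0.17 without, the latter of opposite sign to the probe used, and neither passed. Its interaction was -0.63 (adjusted p = 0.394), and with the mean over probes the Hmox1 interaction was -1.80 (adjusted p = 0.0259). Gstt2 was the positive one, at 2.28 ± 0.43 (adjusted p = 0.00145), from diet changes of 1.78 with agonist and -0.50 without. The authors' deposited table gives -1.21 for Nfe2l2 (adjusted p = 0.0581), -1.81 for Txnrd1, -3.42 for Hmox1 and 3.06 for Gstt2 (0.034, 0.0196 and 0.00319). Srxn1 (-1.60 ± 0.55, adjusted p = 0.0578), Cbr3 (-1.63 ± 0.61, 0.0781) and Gsta2 (2.09 ± 0.80, 0.0885) did not pass. After hepatectomy limma called 0 members, against 0.0046% of all genes. At an unadjusted p under 0.05 there were 2 members, against 4.75% of all genes: Ugdh (1.01 ± 0.36) and Nfe2l2 (-0.89 ± 0.36).

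Hmox1 is abundant in Kupffer cells, the resident macrophages of liver, and before hepatectomy their markers moved in the same direction as the Hmox1 probe used. Of 6 tested Kupffer markers, 5 fell with agonist on the MCD diet, 5 rose with agonist on standard diet, and 5 had a negative interaction before hepatectomy. None of the 6 was below background on every array of a group. Their summed linear level ran between 50.04 and 100.6 in MCD + agonist livers, against 98.6 to 274.5 in MCD livers. It ran between 114.5 and 185.5 in SD + agonist livers, against 41.2 to 72.66 in SD livers. These directions were not particular to Kupffer cells. Median sums of recruited macrophage markers were 32.79 in SD + agonist and 11.61 in SD livers, and 34.77 in MCD + agonist and 46.83 in MCD livers. In the same order, stellate sums were 112.6, 81.75, 112.4 and 214.5, and endothelial sums 87.25, 56.98, 63.4 and 69.88. Neutrophil and cholangiocyte medians moved likewise, and hepatocyte, adipocyte, pancreatic acinar and erythroid medians did not. With hepatectomy the Kupffer sum and Hmox1 did not always move together. The median sum went from 61.83 to 200.3 in SD livers and from 188 to 321 in MCD livers. The median log2 level of Hmox1 went from 2.50 to 2.67 and from 3.62 to 3.75. In SD + agonist livers the sum went from 168.5 to 163.7, while Hmox1 went from 3.86 to 2.05. In MCD + agonist livers both rose, from 71.85 to 124.3 and from 2.07 to 2.96. Of 9 tested markers of recruited macrophages, 6 rose in MCD livers, with sums of 39.42 to 79.35 in MCD livers, against 10.42 to 13.93 in SD livers. The hepatocyte sum ran between 1703 and 1919 in MCD livers, against 2131 to 3111 in SD livers, with 1 of 5 markers lower in MCD livers. Stellate cell markers summed to 184.9 to 378.1 in MCD livers, against 63.23 to 88.34 in SD livers (2 of 7 rose). After hepatectomy neutrophil markers summed to 52.99 to 154.8 in MCD PH livers, against 11.09 to 34.99 in SD PH livers (3 of 6 rose). Erythroid markers summed to 122.4 to 192.3 in MCD + agonist PH livers, against 265.9 to 363.7 in SD + agonist PH livers, with none of 3 passing. None of these 3 pairs overlapped. The part of these cells in the changes of Hmox1, Nfe2l2 or other members was not tested.

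**Figure D5:**
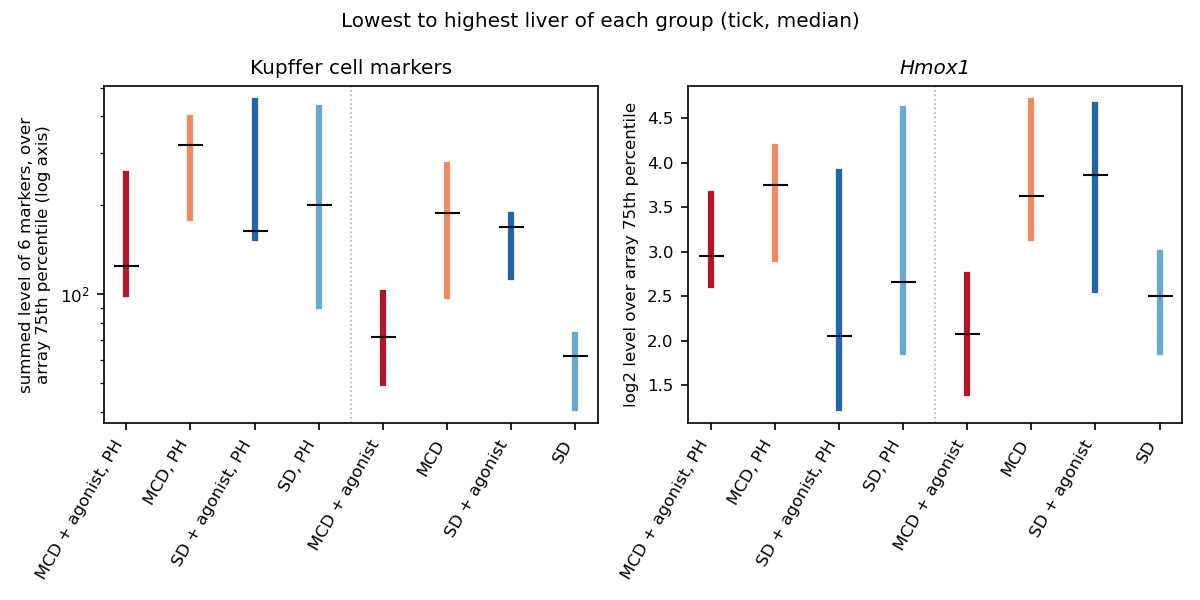
Left, the summed linear level of 6 Kupffer cell markers over the array's 75th percentile (log y axis), and right, the log2 level of Hmox1, in each of the 8 groups (x axis; PH marks livers after hepatectomy); bars run between the lowest and highest liver, with a tick at the median. Before hepatectomy both are low in MCD + agonist and SD livers and high in MCD and SD + agonist livers.

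Comparisons of livers after hepatectomy with those before it also run across slides, scanners and scanning sessions. Group, scanner and session cannot be told apart there. The authors' deposited table was not used for them, since its column medians are 7.0501 to 7.0601 after hepatectomy, against 6.532 to 6.5469 before it, on an unstated centring. On standard diet, SD PH against SD livers had 1 member higher and 1 lower (5.26%), against 13.7% of all genes. That count is by the probe used for each gene. Other probes, adjusted over all probes, passed here for Cat (-1.44), Gstm1 (-1.13), Gstm2 (1.52 and 0.78), Prdx1 (0.68) and Prdx6 (-0.97). Gstp1 read 7.39, 8.76, 8.88 and 8.30 in SD PH livers, against 9.38, 9.16, 9.36 and 9.62 in SD livers (-1.05 ± 0.32, adjusted p = 0.03). Gstm3 read 7.32, 4.83, 4.61 and 5.73 in SD PH livers, against 3.12, 3.90, 5.04 and 3.72 in SD livers (1.68 ± 0.54, adjusted p = 0.0381). Gstp1 was apart and Gstm3 overlapped. Each call was lost in 5 of 8 fits with 1 liver left out (adjusted p up to 0.155 and 0.196, both without SD PH replicate 1), and the split was 5 higher and 0 lower with quantile normalization and 4 higher and 2 lower with normexp. On the MCD diet limma called 0 members, against 9.43% of all genes, and 4 had an unadjusted p under 0.05, against 23.9%. The smallest adjusted p there was 0.0726, for Ephx1 (-0.98 ± 0.35). All 6 tested Kupffer markers and 7 of 9 recruited macrophage markers were higher in SD PH than in SD livers, and their part was not tested.

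With agonist on standard diet, 5 members rose and 0 fell after hepatectomy (13.2%), against 7.34% of all genes called and 2.95% called higher. Gsta2 read 4.24, 4.89, 4.60 and 6.96 in SD + agonist PH livers, against 1.14, 1.14, 0.50 and 2.47 in SD + agonist livers. Gstt2 read 4.26, 4.67, 4.30 and 4.52 in SD + agonist PH livers, against 2.83, 2.43, 2.52 and 3.26 in SD + agonist livers. Both were far apart, with changes of 3.86 ± 0.57 (14.6-fold) and 1.68 ± 0.30 (3.2-fold higher, adjusted p = 0.000324 and 0.00183). Nqo1 read 0.23, 0.59, 0.48 and 1.91 in SD + agonist PH livers, against 0.09, -1.09, -0.42 and -1.49 in SD + agonist livers (1.53 ± 0.43, adjusted p = 0.0301). Gsta4 read 2.44, 2.43, 2.63 and 2.74 in SD + agonist PH livers, against 1.47, 1.53, 0.04 and 1.97 in SD + agonist livers (1.31 ± 0.39, adjusted p = 0.038). These were also apart, and the Nqo1 call was lost with normexp (0.82, adjusted p = 0.103) and in 3 of 8 fits with 1 liver left out (up to 0.132). The Gsta4 call was lost in 7 of 8 such fits (up to 0.162, without SD + agonist replicate 3) and in 3 of 8 other settings. Gstm3 read 5.55, 5.10, 5.74 and 7.76 in SD + agonist PH livers, against 4.11, 2.72, 4.19 and 5.05 in SD + agonist livers (2.02 ± 0.54, adjusted p = 0.0229), and did not pass without SD + agonist PH replicate 4 or SD + agonist replicate 2 (adjusted p = 0.115 and 0.0918).

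With agonist on the MCD diet, 1 member rose and 1 fell after hepatectomy (5.26%), against 10% of all genes. Srxn1 read 5.61, 6.55, 6.03 and 4.85 in MCD + agonist PH livers, against 4.36, 5.25, 2.97 and 4.07 in MCD + agonist livers (1.60 ± 0.39, 3.02-fold higher, adjusted p = 0.0107). Gpx1 read 8.84, 8.48, 8.26 and 9.10 in MCD + agonist PH livers, against 9.52, 9.27, 9.78 and 9.63 in MCD + agonist livers (-0.88 ± 0.22, adjusted p = 0.0109). Without MCD + agonist replicate 3 the Srxn1 change was 1.20 (adjusted p = 0.0508), and without MCD + agonist PH replicate 3 the Gpx1 change was -0.74 (0.0516). Srxn1 overlapped at 1 liver of each group and Gpx1 did not, although the Gpx1 change was -0.12 with normexp and -0.19 with quantile normalization. The split was 9 higher and 4 lower with normexp, 2 higher and 0 lower with quantile normalization, and the count was 0 with only the groups compared.

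Of 49 further genes of the pathway, 46 were tested. On the MCD diet without agonist before hepatectomy 7 rose and 5 fell (26.1%, against 26% of all genes), with a median of 0.18. Gpx7, an endoplasmic reticulum peroxidase, rose (2.69), as did Ggct, of the gamma-glutamyl cycle (1.59), and the basolateral efflux pump Abcc3 fell (-1.54). The pump Abcc4 rose in all 4 diet comparisons, by 3.03 and 1.49 before hepatectomy without and with agonist, and by 1.57 and 2.21 after it. With agonist before hepatectomy 9 rose and 4 fell for the diet (28.3%, against 15.2% of all genes). Bach1, a repressor that competes with NRF2 at its elements, read 0.65, 0.43, 0.95 and -0.28 in MCD + agonist livers, against 3.47, 1.70, 1.31 and 3.22 in SD + agonist livers. No liver overlapped, with a change of -1.99, and Pir (0.97), the small Maf gene Mafg (1.07) and mitochondrial Txn2 (0.83) rose.

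After hepatectomy 4 of the 46 rose and 4 fell with the diet without agonist (17.4%, against 11.5% of all genes), and 6 rose and 1 fell with it (15.2%, against 8.23%). Cth, which makes cysteine from cystathionine, fell (-1.53), and Slc3a2, the heavy chain of the cystine transporter, rose (1.20), both without agonist. With agonist Abcc3 fell (-1.29), and Ggct (1.36) and Nfe2l1, a relative of NRF2 (0.88), rose. With the agonist on the MCD diet 3 rose and 6 fell before hepatectomy (19.6%, against 13.3% of all genes), the fallers including Bach1 (-1.52), Sod3, extracellular superoxide dismutase (-1.69), and Gpx7 (-1.65), while Gstk1 rose (0.98). In SD + agonist against SD livers 1 pathway gene passed (2.17%, against 6.52% of all genes): Abcc3 fell (-1.56). The interaction before hepatectomy passed for 3 (6.52%, against 11.1% of all genes): Bach1 (-2.07), Sod3 (-2.10) and Abcc3 (1.49). After hepatectomy the agonist called 0 of the 46 on either diet by limma, with 7 at an unadjusted p under 0.05 on the MCD diet and 0 on standard diet, and its median change was 0.07 on the MCD diet and 0.05 on standard diet.

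For hepatectomy, 1 of the 46 rose and 2 fell in SD PH against SD livers (6.52%, against 13.7% of all genes): Gpx7 (1.51), Mgst3, a microsomal transferase (-1.05), and Slc3a2 (-0.85). In MCD PH livers 1 passed (2.17%, against 9.43% of all genes): Mgst3 fell (-1.54). In SD + agonist PH livers 4 passed (8.7%, against 7.34% of all genes): Gpx7 (1.90) and Abcc3 (1.27) rose, and Chac1, which degrades glutathione (-1.75), and the NADPH-forming malic enzyme Me1 (-1.72) fell. In MCD + agonist PH livers 4 rose and 3 fell (15.2%, against 10% of all genes), led by Mgst3 (-1.35), Gstm7 (-0.90), Pgd of the pentose phosphate pathway (1.75) and the autophagy receptor Sqstm1 (1.05).

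By the probe used for each gene, 13 members passed in none of the 14 comparisons: Keap1, Gclc, Gsr, Txn1, Prdx1, Prdx6, Cbr1, Osgin1, Gsta3, Mgst1, Gpx4, Sod1 and Sod2. Their smallest adjusted p was 0.0516, for Txn1, followed by 0.0521 for Sod2. Other probes of a member, adjusted over all probes, passed 17 times where the probe used did not, for 9 members. Among those 13, single Prdx6 probes fell with the diet without agonist before and after hepatectomy (-0.78 and -0.77) and with hepatectomy in SD PH and MCD + agonist PH livers (-0.97 and -0.85). Single probes of Prdx1 (0.68, SD PH against SD livers) and Gsta3 (-0.93, MCD + agonist PH against MCD + agonist livers) also passed. In MCD against SD livers another probe of Gstm1 (-1.32) and of Ephx1 (-1.24) fell. The remaining 9 such calls were of Gstm1, Gstm2, Gstm6, Hmox1 and Cat. Gstm1 fell with agonist on standard diet before hepatectomy (-1.40) and in SD PH against SD livers (-1.13). Cat (-1.44) and Gstm2 (1.52 and 0.78) passed in SD PH against SD livers. Gstm2 also passed in SD + agonist PH against SD + agonist livers (1.57). A Gstm6 probe fell with hepatectomy on the MCD diet without and with agonist (-0.86 and -0.85), and an Hmox1 probe rose in MCD + agonist PH livers (1.03).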

How the data were processed

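Cy3-labelled cDNA from total liver RNA was hybridised to Agilent one-colour arrays, 32 in all, 1 for each of 4 livers in 8 groups. Per the file headers, each scan was read with Feature Extraction 10.7.3.1. The deposited text files give each spot's processed signal, an intensity after background subtraction. The authors' deposited table holds log2 values whose centring is unstated. The submitters' processing notes name limma, with no version.

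Here, outlier spots (5010, 0.264% of probe spots) were left out, spots of a probe were averaged, and log2 of the processed signal was taken relative to each array's 75th percentile. This left 6 member values missing, among them Gclc and Gstt3 in MCD + agonist replicate 1 and Ephx1 in MCD + agonist replicate 2. A probe was kept if some group had it well above background in all 4 livers (30139 probes, 21730 genes), and a gene is represented by its probe of highest mean. Of the 58 member probes, 57 were tested. 1 limma fit (limma 3.58.1, R 4.3.3) over the 8 groups gave 14 comparisons, with Benjamini-Hochberg adjustment over all genes at 0.05. The number of arrays limits the precision. The steps were tested on simulated data with 200 changed genes among 21730. There, 19.6% to 33.3% of 2-fold changes and 68.7% to 92.2% of 4-fold changes were called, so a 2-fold change can often fail to pass in that setting. In the data up to 26% of genes were called, and the adjustment depends on that share. These rates therefore need not hold for comparisons with many calls. The members, the gene lists and the markers were chosen with earlier results of these data known. In each comparison the members among the 8 smallest adjusted p that pass are given with every array value, and up to 4 further pathway genes of each list are named. Further members are given with every array value, passing or not, and were chosen after their values were seen. Alternatives were normexp background correction, scaling to the array median, quantile normalization, keeping dim probes, keeping outlier spots, averaging the probes of a gene, the replicate number as a block, only the groups compared, leaving out each array, and the authors' deposited table.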

Additional observations from a re-analysis of the deposited data

Results flagged for a closer look

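In 20 of 298 groups of a member's levels (6.71%), 1 liver stood apart from the others by a gap test at the 95% level, where chance gives about 1 in 20, and 4 of them were SD + agonist PH replicate 4. In that liver Cbr3 read 1.73 (the others between -0.23 and 0.01), Ugdh 6.18 (5.21 to 5.37), Osgin1 5.44 (7.39 to 7.68) and Gstm6 5.15 (6.05 to 6.23).

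Among MCD livers, Srxn1 read 6.34 in replicate 2 (others 5.39 to 5.46), Gstm3 6.28 in replicate 2 (5.60 to 5.65), Gsr 4.98 in replicate 4 (4.50 to 4.56), Prdx1 6.44 in replicate 3 (7.08 to 7.21), Gstm6 5.49 in replicate 3 (4.97 to 5.04) and Sod1 7.57 in replicate 1 (8.69 to 8.79). Among SD livers, Gclc read 4.85 (5.65 to 5.79) and Cbr1 6.60 (5.17 to 5.36) in replicate 1, Gclm 1.87 in replicate 2 (2.58 to 2.67) and Gstm2 5.36 in replicate 4 (5.68 to 5.73). Aox1 read 2.02 in MCD + agonist replicate 3 (2.76 to 2.87).

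After hepatectomy, Gclc read 5.74 (5.48 to 5.50) and Gsr 5.21 (4.75 to 4.81) in MCD + agonist PH replicate 2, Akr1b8 0.61 in MCD PH replicate 4 (1.23 to 1.30), and in SD PH replicate 1 Aox1 read 4.22 (4.70 to 4.79) and Akr1b8 2.54 (0.84 to 1.03).

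The diet change before hepatectomy differed with and without agonist, by the limma interaction, for Nfe2l2 (-1.62), Txnrd1 (-1.09), Hmox1 (-2.96) and Gstt2 (2.28), as given in the comparison above.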

How the results depend on the processing

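For every member called in a comparison, and the 8 alternatives that keep all livers, other than the authors' deposited table, 408 of 488 values kept direction and call, 80 kept direction but no longer passed, and 0 changed sign; with 1 array left out, 385 of 520 kept both, 135 no longer passed and 0 changed sign. Counts of members called moved by more than 1.5 times as follows, and the cause was not tested. Normexp background correction gave 12 for agonist on the MCD diet and 11 on standard diet before hepatectomy, 6 (SD), 1 (MCD), 9 (SD + agonist) and 13 (MCD + agonist) for hepatectomy, and 7 for the interaction. Scaling to the array median gave 4 for diet after hepatectomy and 3 with agonist, 1 for hepatectomy on standard diet, 1 for hepatectomy on the MCD diet with agonist, and 9 for the interaction. Quantile normalization gave 5 for hepatectomy on standard diet. No filter on dim probes gave 4 for diet with agonist after hepatectomy and 1 for hepatectomy on standard diet. The mean over probes gave 3 for agonist on the MCD diet, and for hepatectomy 5 (SD), 1 (MCD) and 5 (MCD + agonist). With only the groups compared there were 3 for diet with agonist before hepatectomy, 2 for agonist on the MCD diet, 3 for diet after hepatectomy, and 0 for hepatectomy on standard diet and on the MCD diet with agonist.

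The authors' deposited table as labelled, with MCD and SD + agonist exchanged relative to the arrays, gave 6 for diet and 17 for agonist on standard diet before hepatectomy, and after it 0 for diet without and with agonist and 9 for agonist on either diet. Of 52 values of members called, 10 kept direction and call, 26 no longer passed and 16 changed sign: Srxn1 -0.58, Gstm2 -0.27 and Gstm3 -0.48 (MCD against SD); Gsta2 -1.40, Gss -0.41, Gstm2 -0.57 and Cat 0.79 (diet with agonist); Srxn1 1.03 and Cat -0.73 (agonist on MCD diet); Gsta2 0.28 (agonist on standard diet); Aox1 0.024, Gstm6 0.11, Gsta4 0.47 and Ephx1 0.28 (diet after hepatectomy); Aox1 0.34 and Gsta4 0.49 (the same with agonist).

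Leaving out 1 array at a time, the members called ranged between 11 and 16 for diet and 6 and 11 with agonist before hepatectomy, and between 3 and 10 and 4 and 8 after it. For agonist they ranged between 0 and 6 on the MCD diet and 2 and 6 on standard diet before hepatectomy. For hepatectomy they ranged between 0 and 5 (SD), 0 and 1 (MCD), 2 and 6 (SD + agonist) and 1 and 4 (MCD + agonist), and for the interaction between 3 and 6. The replicate number is shared between groups but did not pair the livers: of 112 same-numbered pairs the median correlation of deviations was 0.017, 17 were above 0.1, and 12 of 32 arrays correlated best with their own number. With the replicate block, 15, 11, 5 and 2 members were called in the comparisons before hepatectomy of diet, diet with agonist, agonist on the MCD diet and agonist on standard diet. The call of Gstp1 for agonist on standard diet (adjusted p = 0.0557) and of Gstm4 for diet with agonist after hepatectomy (0.0516) did not pass with the block.

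With 4 livers a group the number of arrays limits precision, array signal has no count depth, and calls made across slides cannot be told apart from slide.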
